A study of Mus musculus with 6 samples.

Results

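The genes described are isozymes of the glycolytic steps in the heart, that is, different genes that encode the same enzyme. The list held 10 genes of 5 enzymes, namely hexokinase (Hk1, Hk2), phosphofructokinase (Pfkm, Pfkp), aldolase (Aldoa, Aldoc), phosphoglycerate mutase (Pgam1, Pgam2) and enolase (Eno1, Eno3). They were matched by gene symbol in a table of 25697 probes with 18138 symbols. Of the 10 genes, 9 were found, with 13 probes, and Hk2 was not analysed here. All 9 had at least 1 probe detected, that is, above background at a detection p-value under 0.05, on 3 or more arrays, and 12 of the 13 probes passed this filter. The list was chosen by the difference between hSRY-ON and hSRY-OFF in these same hearts, the muscle isozyme against the other isozyme of each enzyme. Their differences are therefore given as a description with no p-value, and p-values are given only for genes outside the list. The lists of those other genes were also set with earlier results of these data known, which limits what their p-values mean.

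Total RNA came from whole hearts of male pups at postnatal day 6, FVB by the labels and FVB/N by the methods, 3 hSRY-ON and 3 hSRY-OFF, with 1 array for each heart. In hSRY-ON mice a single-copy Signalox-hSRY transgene at the H11 locus of chromosome 11 had been recombined in the fertilized egg by Cre carried over from the oocyte of a Ddx4-Cre mother. The ubiquitous CAG promoter then drives FLAG-tagged human SRY together with EGFP, so the heart is not the only organ that carries active hSRY. The paper reports that hSRY-ON pups suckled little and grew more slowly than littermates, and that some had died by this age. Apoptotic areas were seen in some of their hearts. The part of these conditions in the values below was not tested. The hSRY-ON mice used for the arrays carried no Ddx4-Cre transgene themselves, and all came from 1 transgenic responder line. For the hSRY-OFF hearts, here also called controls, the study gives more than a single definition, since its methods use the name for mice with the unrecombined transgene and its results describe control littermates without it, with or without Ddx4-Cre. Which of these the hSRY-OFF arrays represent cannot be told apart here. The labels call the hearts of a group replicates and do not say which litters they came from.

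Glycolysis breaks glucose down to pyruvate in the cytosol. Several of its enzymes exist as an isozyme typical of striated muscle and as others that are widely expressed or typical of the brain, the liver or other tissues. In rodents the heart relies strongly on glucose before birth, and the muscle isozymes of several enzymes gain weight as the myocardium matures.

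On these arrays the signal of a transcript is the mean brightness of beads coated with its probe. Levels are log2 intensities after removal of the background and quantile normalization, with the 3 hearts of a group always listed in the order of their replicate numbers. Log2 fold changes compare hSRY-ON with hSRY-OFF and are negative where hSRY-ON was lower, and a gene is given by its brightest probe unless another is named. Probes bind with different strength, so levels were compared between hearts for a given probe and never between probes. The probes detected on an array made up 47.2% to 51.3% of all, and the array of hSRY-OFF replicate 3 was dimmer than the rest (mean intensity 631, others 723 to 939). Correlations over all tested probes were 0.983 to 0.992 within groups and 0.940 to 0.960 between them, and no array duplicated another. Of 12970 tested probes, 3567 were differentially expressed at an adjusted p-value under 0.05 (limma, Benjamini-Hochberg over all tested probes), and 5228 had an unadjusted p-value under 0.05.

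All 4 muscle isozymes that were measured, Pfkm, Aldoa, Pgam2 and Eno3, were lower in the hSRY-ON hearts, and 4 of the 5 other isozymes, Pfkp, Aldoc, Pgam1 and Eno1, were higher. The fifth, Hk1, overlapped between the groups. In RNA of a whole heart, fewer cells of a type and less RNA per cell cannot be told apart. Of the 9 genes, 4 were called higher and 4 lower by the fit at an adjusted p-value under 0.05. Over all 9660 tested genes, each taken by its brightest probe, 14.9% were called higher and 13.9% lower. In 8 of the 9 genes the hearts of the groups did not overlap, which was the case in 46.8% of all tested genes. Nothing is read from these shares, because the list was selected on this contrast. The median log2 fold change was -1.15 over the 4 muscle isozymes and 0.64 over the 5 other members, against 0.00257 over all tested genes. Without normalization between arrays the calls of Pgam1 and Eno1 were lost. The call of Aldoa was lost without hSRY-OFF replicate 1, and that of Pgam1 without hSRY-OFF replicate 2, hSRY-ON replicate 1 or hSRY-ON replicate 3.

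**Figure D1:**
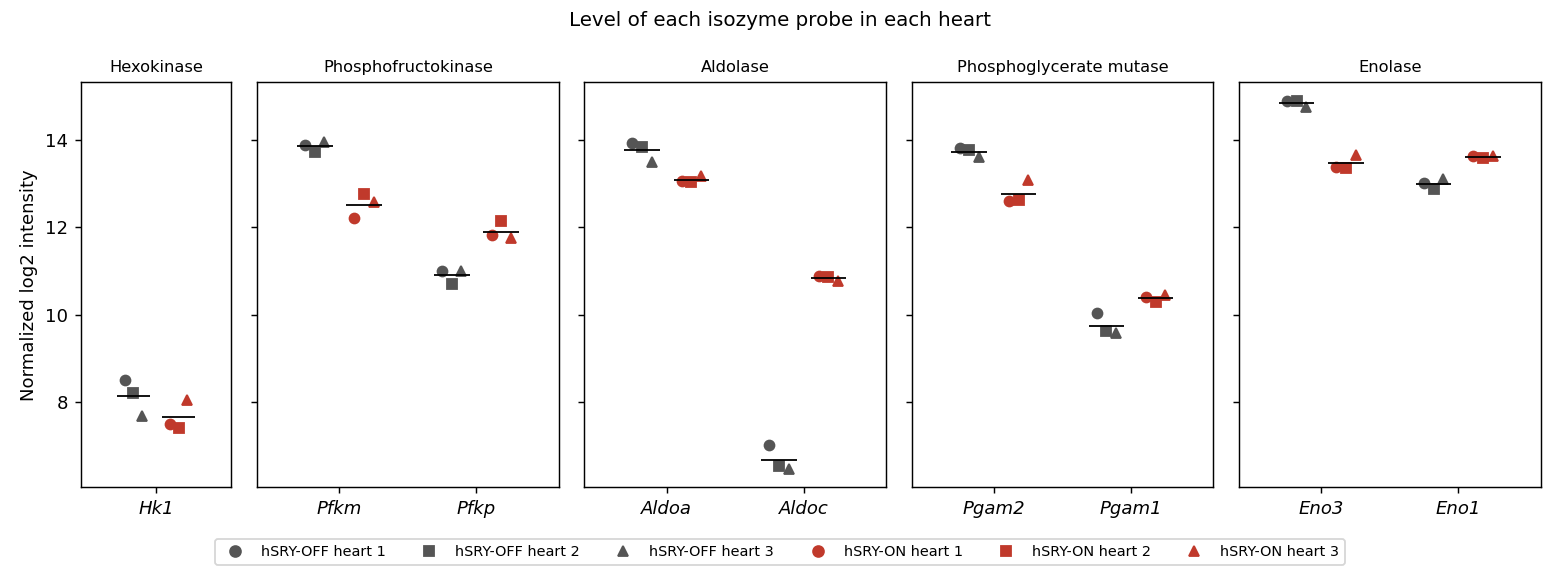
Normalized log2 intensity (vertical axis) of the brightest probe of each of the 9 isozyme genes found, grouped by enzyme, in the 3 hSRY-OFF hearts (grey) and the 3 hSRY-ON hearts (red). Each symbol is 1 heart and each line a group mean. Heights can be compared between hearts for a gene but not between genes. The red symbols lie below the grey ones for Pfkm, Aldoa, Pgam2 and Eno3, above them for Pfkp, Aldoc, Pgam1 and Eno1, and among them for Hk1.

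Hexokinase phosphorylates glucose as it enters the pathway. Hk1, the widely expressed isozyme that prevails in brain and red blood cells, gave 8.50, 8.21 and 7.66 in the controls against 7.50, 7.41 and 8.04 with active hSRY. The groups overlapped, because hSRY-ON replicate 3 lay above hSRY-OFF replicate 3. The group means were 8.12 ± 0.42 (SD, n = 3) and 7.65 ± 0.34 (SD, n = 3), a log2 fold change of -0.47 with a 95% interval from -1.06 to 0.11. The SD of Hk1 within a group was wider than that of any other member in both groups. Of the other hexokinases, Hk3 stood at 0.26 (standard error 0.22, limma adjusted p = 0.414), and Hkdc1 was not detected in any heart.

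Phosphofructokinase catalyses the committed step of the pathway. Pfkm encodes the muscle subunit. The level of its brightest probe was 13.89, 13.74 and 13.97 in the controls but 12.21, 12.77 and 12.59 with active hSRY. The highest hSRY-ON heart thus stayed below the lowest hSRY-OFF heart. The level was 2.53-fold lower in hSRY-ON, its log2 fold change being -1.34 with a standard error of 0.17. The other two probes of Pfkm gave -1.58 and -1.65, so all its probes lay in the same direction, with the brightest giving the smallest difference. In deposited intensities, before any correction, the brightest probe read 17847, 17090 and 13469 in the hSRY-OFF and 4568, 6966 and 5927 in the hSRY-ON hearts.

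Pfkp, the subunit first described in platelets, went the opposite way. Its brightest probe read 10.71 in control replicate 2 and close to 11 in the other two controls, against 11.83, 12.14 and 11.75 with active hSRY. All hSRY-ON hearts lay above all hSRY-OFF hearts, and the means differed by 1.001 on the log2 scale (standard error 0.15). A second probe gave 1.14 (standard error 0.15), and the remaining probe was not detected in any heart. Pfkl, the liver subunit, was tested as a gene outside the list. The groups overlapped for it, with a log2 fold change of -0.12 (95% interval from -0.40 to 0.16, adjusted p = 0.491, limma), and its dimmer probe gave 0.16 (adjusted p = 0.596). The 3 subunits thus had values on both sides of 0, and for Pfkl the interval holds changes of up to 0.40 downwards.

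Aldolase splits fructose bisphosphate into triose phosphates. Aldoa, the isozyme of muscle and of many other tissues, stood at 13.94, 13.86 and 13.51 in the controls and was lower, at 13.07, 13.05 and 13.17, with active hSRY. The groups did not overlap, and the log2 fold change of -0.67 (standard error 0.15) was the smallest of the muscle isozymes. hSRY-OFF replicate 3 lay nearest to the hSRY-ON hearts. In deposited intensities that heart read 9525, against 19133 and 19252 in the other hSRY-OFF hearts and 8092, 8415 and 8858 in the hSRY-ON hearts.

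Aldoc, the aldolase typical of brain, had the largest difference among the members. Its levels of 7.01, 6.52 and 6.46 in the controls stood against 10.88, 10.87 and 10.77 with active hSRY. The probe was above background on all 6 arrays, with deposited intensities of 295, 268 and 189 in the controls, against 1882, 2012 and 1770 with active hSRY. The log2 fold change was 4.18 (standard error 0.17), an 18.1-fold higher level in hSRY-ON, and only 7 of the 12970 tested probes had a larger increase. The hSRY-OFF intensities were low, and the size of the difference moved with the background correction. It was 3.05 when no background was removed and 3.78 with a larger offset of 50, with the sign unchanged.

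RefSeq annotates a pair of starts for Aldoc on the plus strand of GRCm38.p6, and the windows from 250 bases before to 50 bases after each start are shown because Aldoc differed most between the groups. Capitals mark the core of the site of hypoxia-inducible factors (HIF), ACGTG or GCGTG on either strand, shown as CACGT or CACGC where it lies on the other strand.
Aldoc, upstream start, chr11:78322823-78323122: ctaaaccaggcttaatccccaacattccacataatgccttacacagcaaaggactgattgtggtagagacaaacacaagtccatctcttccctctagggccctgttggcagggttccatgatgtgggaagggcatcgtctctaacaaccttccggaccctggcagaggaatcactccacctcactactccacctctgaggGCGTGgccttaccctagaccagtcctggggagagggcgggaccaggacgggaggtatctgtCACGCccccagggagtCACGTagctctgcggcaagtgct
Aldoc, downstream start, chr11:78323948-78324247: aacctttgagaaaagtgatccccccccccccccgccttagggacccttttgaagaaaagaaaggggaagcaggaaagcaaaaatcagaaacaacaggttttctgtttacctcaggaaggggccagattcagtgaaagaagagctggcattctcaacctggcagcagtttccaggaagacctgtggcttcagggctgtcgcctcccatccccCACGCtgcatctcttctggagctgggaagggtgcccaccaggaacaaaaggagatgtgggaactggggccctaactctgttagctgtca
The upstream window holds 3 such cores and the downstream window 1.

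Phosphoglycerate mutase moves the phosphate of phosphoglycerate ahead of the enolase step. Pgam2, the muscle isozyme, was at 13.83, 13.77 and 13.63 in the controls and at 12.61, 12.62 and 13.10 with active hSRY. hSRY-ON replicate 3 lay nearest to the hSRY-OFF hearts but still below them. The log2 fold change was -0.96 (standard error 0.16), a 1.95-fold lower level in hSRY-ON. Pgam1, the brain-type isozyme of most other tissues, was at 10.03, 9.63 and 9.58 in the controls and at 10.41, 10.30 and 10.44 with active hSRY. It was 1.55-fold higher in hSRY-ON, its log2 fold change being 0.64 with a standard error of 0.15. The nearest hearts of the groups were hSRY-OFF replicate 1 and hSRY-ON replicate 2.

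Each of these genes has 1 annotated start, so their windows of 300 bases can be set side by side, Pgam1 on the plus and Pgam2 on the minus strand of GRCm38.p6. Capitals mark HIF cores in Pgam1 and the site of the muscle transcription factor MEF2 in Pgam2.
Pgam1, chr19:41911621-41911920: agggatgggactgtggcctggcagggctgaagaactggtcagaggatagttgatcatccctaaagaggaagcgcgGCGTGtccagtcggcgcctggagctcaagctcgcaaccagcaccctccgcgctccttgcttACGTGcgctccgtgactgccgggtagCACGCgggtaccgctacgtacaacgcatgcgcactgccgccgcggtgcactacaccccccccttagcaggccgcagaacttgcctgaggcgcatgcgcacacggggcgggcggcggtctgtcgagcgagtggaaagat
Pgam2, chr11:5803747-5804046: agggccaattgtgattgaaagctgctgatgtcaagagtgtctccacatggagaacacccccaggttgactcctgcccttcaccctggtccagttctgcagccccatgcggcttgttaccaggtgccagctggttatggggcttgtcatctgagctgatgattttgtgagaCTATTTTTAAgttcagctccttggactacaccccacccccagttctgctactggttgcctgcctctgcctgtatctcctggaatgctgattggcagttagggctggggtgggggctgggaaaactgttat
The Pgam1 window holds 3 HIF cores, no MEF2 site and no E-box (CANNTG, which overlaps ACGTG in CACGTG). The Pgam2 window holds 1 MEF2 site and 5 E-boxes, the motif bound by myogenic factors, and no HIF core.

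Over all members, Hk2 included, the 19 annotated windows were searched on both strands for these motifs and for the SRY/SOX motif (AACAAT or AACAAAG). A HIF core occurred in 15 of the 19 windows and in at least 1 window of 9 of the 10 genes, all but Pgam2. Genes with a core thus include Pfkm, Aldoa and Eno3, which were lower in hSRY-ON, as well as the 4 that were higher. Eno2, an enolase outside the list that was higher in hSRY-ON, was searched too and held no HIF core. Of the 27025 genes with RefSeq windows of the same length, 46.7% held a HIF core in at least 1 window. By window it was 43.8% of 32851, with 69.2% among the windows of at least 60% G and C and 33.1% among the others. Of the 19 windows of the members, 8 had at least 60% G and C. The MEF2 site was found in Pgam2 and in no other member, against 3.7% of all genes. An E-box was found in 7 of the 10 members and in 75.0% of all genes. The SRY/SOX motif was found in Hk2 alone among the members, and in 17.7% of all genes. A gene with several starts has more windows in which to match. In Pfkm, Aldoa and Eno1 some windows overlap, so that the same HIF core is counted in more than 1 of the 19. A match is a run of letters and not a site shown to be bound. Aldoc, Pgam2 and Eno3 lie on chromosome 11, which also carries the transgene, and the other members lie on 7 other chromosomes.

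Enolase produces phosphoenolpyruvate. Eno3, the muscle isozyme, reached 14.91, 14.91 and 14.76 in the controls but only 13.38, 13.37 and 13.66 with active hSRY. Its log2 fold change of -1.39 (standard error 0.13) was the largest decrease among the members by their brightest probes, a 2.62-fold lower level. Deposited intensities of 34334, 35369 and 24349 in the hSRY-OFF hearts compared with 10055, 10271 and 12105 in the hSRY-ON hearts. Eno1, the isozyme of most tissues, was at 13.03, 12.88 and 13.12 in the controls and at 13.63, 13.60 and 13.64 with active hSRY. It was 1.53-fold higher in hSRY-ON, its log2 fold change being 0.62 with a standard error of 0.12, and the SD of its hSRY-ON hearts, 0.021, was the smallest among the members in hSRY-ON. Apart from Pfkm and Pfkp, all members found were read by a single probe, and processed pseudogenes of several glycolytic genes exist. The probe sequences were not analysed here, so cross-hybridization was not tested.

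Eno2, the neuronal enolase, is not in the list and was tested. The controls lay at 7.25, 7.32 and 7.44, well below the 9.41, 10.11 and 9.22 found with active hSRY. It rose in hSRY-ON by 2.24 on the log2 scale (standard error 0.23, adjusted p = 0.000678 from limma), a 4.73-fold higher level. hSRY-ON replicate 2 was the highest heart, as it was for Pfkp, and without it the log2 fold change of Eno2 was 1.97. It was 1.60 when no background was removed.

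The change of the muscle isozyme relative to the other isozyme was followed within each heart. For this, the log2 difference between both probes was taken on each array and set relative to its mean in hSRY-OFF, which removes the unknown binding strength of the probes. Aldoa minus Aldoc moved most, with -4.92, -4.92 and -4.70 under active hSRY and between -0.17 and 0.23 in the hSRY-OFF hearts, a mean of -4.85 ± 0.12 (SD, n = 3). Pfkm minus Pfkp followed with -2.58, -2.33 and -2.11 in the hSRY-ON hearts and a mean of -2.34 ± 0.23 (SD, n = 3). Eno3 minus Eno1 stood at -2.11, -2.08 and -1.82, with a mean of -2.002 ± 0.15 (SD, n = 3). Pgam2 minus Pgam1 stood at -1.79, -1.67 and -1.34, with a mean of -1.60 ± 0.23 (SD, n = 3). In every pair the hSRY-ON hearts lay below all hSRY-OFF hearts, and the shift was 5.07-fold for phosphofructokinase, 28.8-fold for aldolase, 3.03-fold for the mutase and 4.01-fold for enolase. hSRY-ON replicate 3 was the heart nearest to hSRY-OFF in all 4 pairs. In the Aldoa pair most of the movement came from Aldoc, whereas in the Pfkm, Pgam2 and Eno3 pairs the muscle isozyme moved more than its partner. Over the 6 combinations of tested Pfkm and Pfkp probes the shift ranged from -2.80 to -2.34. A shift shows that the isozymes changed unequally and does not give the share of an enzyme that either supplies.

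**Figure D2:**
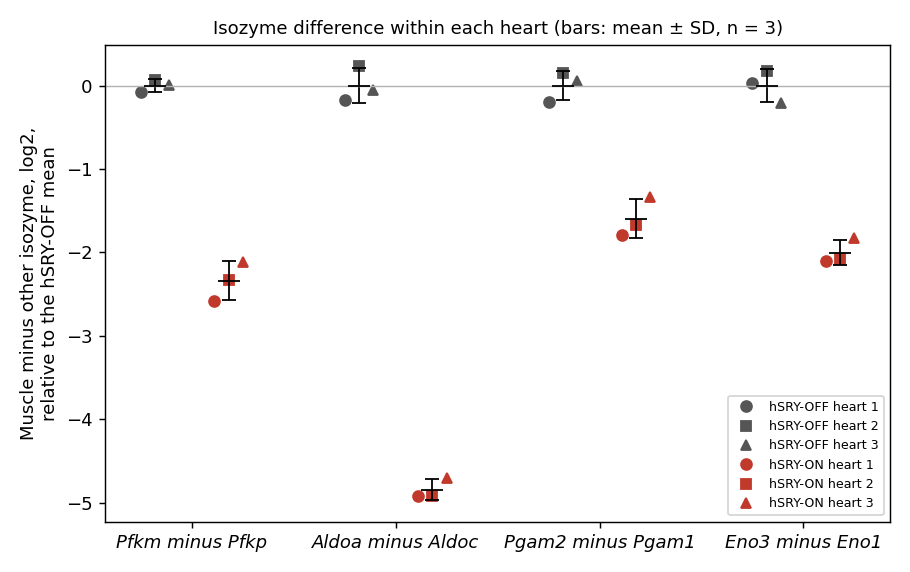
Log2 difference between the muscle isozyme and the other isozyme within each heart, relative to the hSRY-OFF mean (vertical axis), for 4 enzymes. Symbols are hearts, grey for hSRY-OFF and red for hSRY-ON, and bars are means with the SD of 3 hearts. The hSRY-ON means stand at -2.34 for Pfkm minus Pfkp, -4.85 for Aldoa minus Aldoc, -1.60 for Pgam2 minus Pgam1 and -2.002 for Eno3 minus Eno1.

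Other genes linked to glycolysis were compared next. The list of other glycolytic genes held 16 symbols, of which 13 were found and 7 were tested. The symbols Gpi1, Pkm and Ldhb were not found, so the 7 tested genes do not cover every other step. By limma, with the brightest probe of each, 0 of these 7 were differentially expressed after adjustment. Over all tested genes 14.9% were called higher and 13.9% lower. Among the 7, 1, Tpi1, had an unadjusted p-value under 0.05. By their brightest probes all 7 had negative log2 fold changes, from -0.51 to -0.03 with a median of -0.25. The probes of Tpi1 disagreed in direction, as given below. The hearts of the groups did not overlap in 3 of them, Tpi1, Gapdh and Pkm2, against 46.8% of all tested genes, so no decrease is read from this. Gapdh, the dehydrogenase of the triose phosphates, stood at -0.13 (95% interval from -0.37 to 0.12, adjusted p = 0.409). Pkm2, which the file lists for the pyruvate kinase of muscle, stood at -0.25 (95% interval from -0.54 to 0.04, adjusted p = 0.173). Ldha, the lactate dehydrogenase subunit typical of muscle, stood at -0.13 (adjusted p = 0.456), Pgk1, the phosphoglycerate kinase, at -0.32 (adjusted p = 0.331) with a probe of low intensity, and Pgam5, a mitochondrial phosphatase named for its likeness to the mutases, at -0.03 (adjusted p = 0.862). Under the scaling to the median of detected probes, Pgam5 turned to 0.082. Pgm2 stood at -0.51 (adjusted p = 0.254), but without hSRY-OFF replicate 3 it was -0.87 and passed the threshold, whereas without hSRY-OFF replicate 2 it was -0.20. By their brightest probes, the 95% intervals of Pgk1 and Pgm2 reach decreases of the size seen in Aldoa and those of the other 5 do not.

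The probes of Tpi1, triose phosphate isomerase, differed among themselves. The brightest gave -0.29 (adjusted p = 0.103), the second -0.72 (standard error 0.18, adjusted p = 0.0217) and the dimmest 0.54 (standard error 0.11, adjusted p = 0.00937), all from limma. The last read 7.98, 8.01 and 8.08 in the hSRY-OFF and 8.53, 8.60 and 8.56 in the hSRY-ON hearts. No direction is therefore given for the gene.

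Among 7 genes that regulate or reverse the step forming fructose bisphosphate, 3 were tested and 2 fell. Pfkfb2, the bifunctional kinase and phosphatase prominent in heart, fell from 9.22 ± 0.17 (SD, n = 3) to 8.43 ± 0.25 (SD, n = 3), which is -0.79 on the log2 scale (standard error 0.16, limma adjusted p = 0.0109). Fbp2, the muscle fructose bisphosphatase, fell by 3.98 (standard error 0.30, adjusted p = 0.000204), with 2 of the 3 hSRY-ON hearts above background, and by 2.29 when no background was removed. Pfkfb4 stood at -0.18 (adjusted p = 0.446). Pfkfb1 was not detected in any heart, and Pfkfb3 and Fbp1 in 1 heart each.

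**Figure D3:**
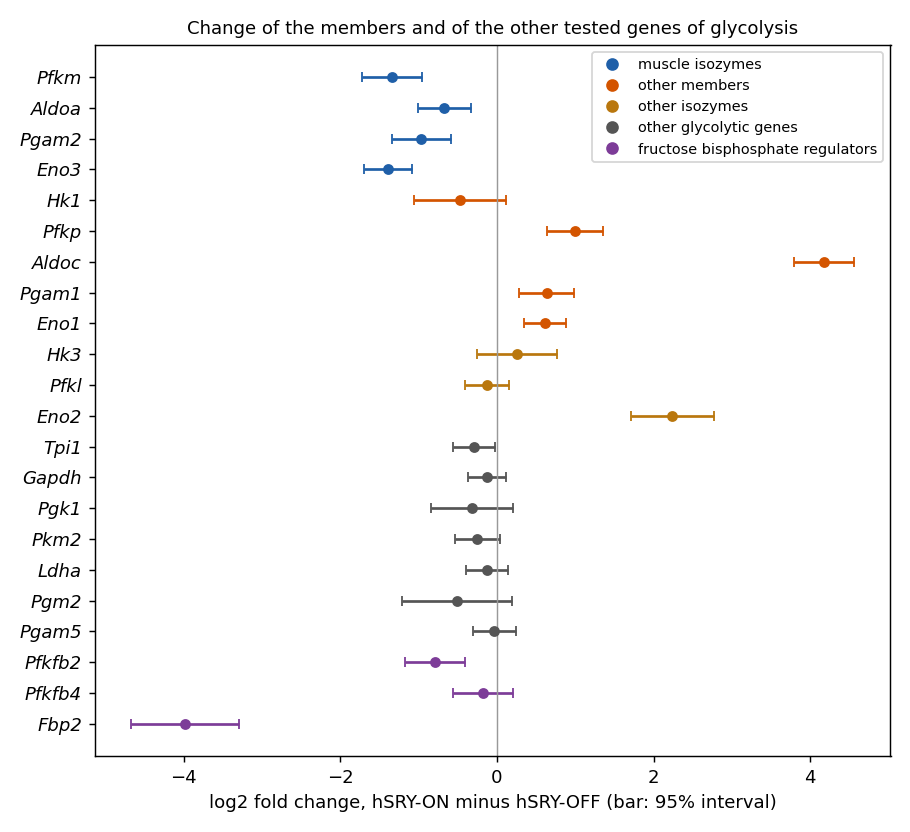
Log2 fold change, hSRY-ON minus hSRY-OFF (horizontal axis), with its 95% interval, of the 9 members and of the 13 other tested genes of the pathway lists. Muscle isozymes (blue) lie between -1.39 and -0.67, the other members (orange) reach from -0.47 for Hk1 to 4.18 for Aldoc, and the 7 other glycolytic genes (grey) lie between -0.51 and -0.03.

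The hearts were checked for markers of the cell types they could hold. Of 10 cardiomyocyte markers 9 were found and all of these were tested, 4 of them lower (Myh6, Tnni3, Ryr2 and Pln) and 1, Nkx2-5, higher in hSRY-ON, with a median log2 fold change of -0.20. Their summed normalized intensity, in which bright probes weigh most, was 162643 to 172356 in the hSRY-OFF and 146417 to 159364 in the hSRY-ON hearts. Myl3 and Tnnc1, at means of 15.39 and 15.41 in hSRY-OFF, lay near the top of the normalized scale (15.49), where a difference can be compressed. The dimmer probe of Myh6 gave a log2 fold change of -1.97, against -0.51 for its brightest. The dimmer probe of Actc1 gave -0.54, with overlapping groups. Of 10 skeletal muscle markers 9 were found, Myh1, Myh2, Myh4, Tnnc2 and Tnnt3 were above background on no array, and the sum was 647 to 776 in hSRY-OFF but 507 to 541 in hSRY-ON. Of the 4 tested, Tnni2 and Myh8 were lower and Actn3, above background on no hSRY-OFF array, was higher. Beside Aldoc and Eno2, which are typical of neurons or brain, 8 markers of neurons and glia summed to 487 to 526 in the hSRY-OFF hearts against 391 to 474 in hSRY-ON. Of these, Snap25, Syt1, Gfap and S100b were above background on no array, and of the 3 tested, 0 were higher and 1 was lower in hSRY-ON. Macrophage markers, 5 found of 6, summed to 491 to 539 in the hSRY-OFF hearts against 808 to 998 in hSRY-ON. Of these, 3 were higher (Cd68, C1qa and Cd163, the last above background on no hSRY-OFF array). Csf1r gave 0.40 by its brightest probe, with overlapping groups, and 1.30 by its other probe (limma adjusted p = 0.000886). Emr1 stood at -0.21, with overlapping groups. Erythroid markers, 6 found of 6 with Epb4.2 above background on no array, summed to 49093 to 61342 and 50875 to 55539, with 1, Hbb-b1, lower. Most of that sum was Hba-a1, the highest value on 5 of the 6 arrays and so at the ceiling of the normalized scale, where a difference could not show. Without it, a choice made after seeing the data, the sum was 6007 to 15425 in hSRY-OFF and spread over 4958 to 9622 in hSRY-ON. Fibroblast markers, 6 of 6 found, summed to 18068 to 18649 and 14652 to 18225, with 0 of 5 tested called. Endothelial markers, 6 of 6 found with Kdr above background on no array, summed to 11876 to 12224 and 12676 to 14503, with 2 higher (Emcn and Eng) and 2 lower (Cdh5 and Tek). Brown fat markers, 5 of 5 found with Dio2 and Elovl3 above background on no array, summed to 1909 to 2625 in the hSRY-OFF hearts and spread from 1021 to 3358 in hSRY-ON. Ucp1 was called higher, but its groups overlapped, with 4.64, 5.03 and 8.88 in the controls against 10.81, 8.80 and 9.94 with active hSRY, so that hSRY-OFF replicate 3 stood apart from the other controls and above hSRY-ON replicate 2. Cidea, which weighs most in the hSRY-OFF sums, went the opposite way to Ucp1, from 10.92 ± 0.10 (SD, n = 3) to 9.86 ± 0.83 (SD, n = 3). Its groups did not overlap, but its log2 fold change of -1.05 was not called (limma adjusted p = 0.0691). Ppara was called lower and was above background on no hSRY-ON array. The part of any of these cell types in the isozyme values was not tested.

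Taken by brightest probes, Aldoc gained most and Eno3 lost most among the members. For both, the genes with the most similar pattern over the 6 hearts were sought by Pearson's r of the normalized log2 values. For Aldoc these were Slc24a4, a cation exchanger gene (r = 0.9995, log2 fold change 2.96), Sel1l, which serves protein quality control in the endoplasmic reticulum (r = 0.998, 0.53), and LOC100046120 (r = 0.996, 3.32). For Eno3 they were Ndufs8, a subunit of respiratory complex I (r = 0.9994, -0.90), Suclg1, a subunit of succinyl-CoA ligase (r = 0.999, -0.79), and Vegfb, a growth factor gene (r = 0.998, -1.25). With 6 hearts in 2 separate groups, 573 genes reached an r over 0.95 with Aldoc and 646 with Eno3, so the ranking mainly reflects the gap between the groups.

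The members were followed through the other processing settings. All 9 kept the sign of their log2 fold change under every other setting and whichever heart was left out. Eno3 stayed between -1.53 and -1.32, Pfkm between -1.52 and -1.20, Pgam2 between -1.13 and -0.89 and Aldoa between -0.86 and -0.58. Among the genes that were higher, Aldoc stayed between 3.05 and 4.35, Pfkp between 0.89 and 1.11, Pgam1 between 0.55 and 0.78 and Eno1 between 0.46 and 0.68. Hk1 lay between -0.70 and -0.28 and was not called under any of them. Since the members were chosen on these hearts, an unchanged sign is a description of the values and not further support for them.

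**Figure D4:**
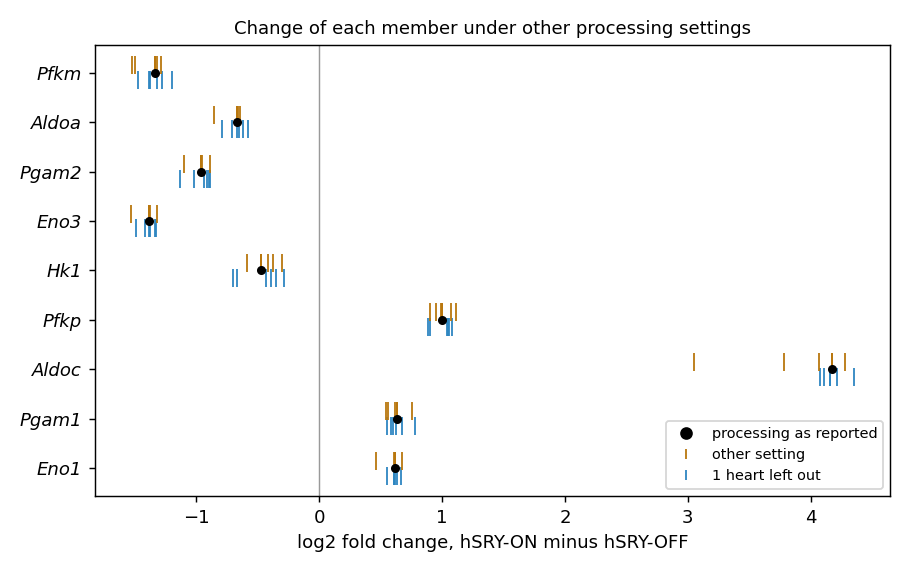
Log2 fold change, hSRY-ON minus hSRY-OFF (horizontal axis), of the 9 members with the processing as reported (black points), under other settings (brown ticks) and with 1 heart left out (blue ticks). No tick crosses 0, and Aldoc has the widest spread, from 3.05 to 4.35.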

How the data were processed

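Total RNA of 3 hSRY-ON and 3 hSRY-OFF hearts had been hybridized to Illumina mouse BeadChips. What the authors deposited is, for each probe and array, a mean bead intensity (linear, neither normalized nor background-subtracted) and a detection p-value. The scanner software is not given in the sources used here. The study's methods name the R package TCC, which was not used here, and the labels name limma. With R 4.3.3 and limma 3.58.1, neqc removed the background as estimated from detection p-values, then quantile normalized the arrays with an offset of 16 and took log2. Probes with a detection p-value under 0.05 on at least 3 of the 6 arrays were fitted with lmFit and eBayes, with group as the only term. Tests were two-sided, with Benjamini-Hochberg adjustment across every tested probe. The steps were tested on simulated data. A gene was given by its brightest probe. Precision is limited by the number of arrays, and 3 hearts against 3 cannot reach an exact permutation p below 0.1. The p-values measure the spread between these samples only.

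The members and gene lists were chosen with earlier results of these data known. The text names all members, the other genes of the pathway lists with a tested probe, and the 3 genes most like the members with the largest increase and decrease. Alternatives were other background corrections, no normalization or median scaling, other probe filters (none, all 6 arrays, detection at 0.01), eBayes with trend and robust fitting, the mean of a gene's probes, the replicate number as a block, and each heart left out. Promoter windows came from RefSeq on GRCm38.p6. Python 3.11.15 with matplotlib 3.10.9 made the figures.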

Additional observations from a re-analysis of the deposited data

How the results depend on the processing

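The number of members called was 6 to 8 of 9 under every setting tried. Since the members were chosen on this contrast, that count is a description and not support for them. The number of probes called, 3567, ranged over the other settings from 1897 without normalization between arrays to 4026 with trend and robust eBayes. It was 2206 to 3669 with each heart left out in turn (2206 without hSRY-OFF replicate 1, 2255 without hSRY-ON replicate 1). Without normalization between arrays the median log2 fold change of all genes was -0.11 and 38.5% of the called probes were higher in hSRY-ON, against 50.1% as reported. With scaling to the median of detected probes these were 0.10 and 65.7%. The members' changes relative to that shift kept their direction. The shift of Aldoa minus Aldoc was -3.71 without background correction and -4.45 with normexp and an offset of 50, where the dim hSRY-OFF values of Aldoc are compressed. With the mean of a gene's probes, that of Pfkm minus Pfkp was -2.60, and Pfkl turned to 0.018. Of the other glycolytic genes 0 were called as reported, 1 without background correction (Tpi1), 2 with trend and robust eBayes (Tpi1 and Pkm2), and 0 to 1 with a heart left out, the 1 being Pgm2 without hSRY-OFF replicate 3. Pgam5 turned to 0.082 with scaling to the median, and ranged from -0.086 to 0.0093 with a heart left out. Deviations of same-numbered hearts had correlations of -0.025, 0.038 and -0.066. With so few hearts these values cannot decide whether the numbers pair them, and the labels do not give litters. With the replicate number as a block, 2842 probes and 8 members were called. For Aldoc, signal over background in hSRY-OFF limits the size of the change.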
